A study of Mus musculus with 5 samples.

Results

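The genes described here are the Hox genes Hoxa5, Hoxa7, Hoxa9, Hoxa10, Hoxb4 and Hoxb5, their partners Meis1 and Pbx3, and the chromatin reader Mllt3. They were chosen by symbol, and all 9 are among the 33894 named genes of the deposited tables. RNA was sequenced from mouse bone marrow cells sorted as haematopoietic stem cells: no lineage markers, Sca1 present, c-Kit high, and neither CD34 nor Flt3 at the surface. The 3 libraries labelled dKO came from 8-week-old mice with Vav-cre, a Cre transgene under the Vav promoter, which is active in blood cells, together with floxed copies of Lrp5 and Lrp6 (Lrp5 fl/fl Lrp6 fl/fl). The 2 WT libraries came from mice of the same age labelled WT. Each library was made by Smart-seq2, a full-length method for small samples, from 6K cells. Cre is named in the dKO group only, so the effects of the transgene and of the floxed genes cannot be told apart. Whether a library is a separate mouse or a pool is not stated in the labels. The p-values therefore measure the spread between these libraries alone, which may be technical.

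Hox proteins are homeodomain transcription factors encoded in 4 clusters, and haematopoietic stem cells use mainly genes of the HoxA and HoxB clusters. They bind DNA together with the TALE homeodomain proteins, among which Pbx proteins contact Hox proteins directly and Meis proteins hold Pbx proteins in the nucleus. Transcription of HoxA genes and Meis1 is maintained by the MLL histone methyltransferase, and Mllt3 (AF9) belongs to the elongation machinery that is joined to MLL in leukaemias with MLL fusions. Lrp5 and Lrp6 are the co-receptors of canonical Wnt signalling, and the comparison asks whether the expression of this gene set differs when they are deleted in blood cells.

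Library totals ran from 16028512 counts in dKO replicate 2 to 28027458 counts in WT replicate 2, and between 12894 and 16098 genes had a count. Replicate 2 of dKO stood apart, its highest correlation with another library being 0.851 across genes in log2 CPM, counts per library size scaled by TMM, while the other libraries reached at least 0.883 with each other. The counts of the targeted genes overlapped between dKO and WT, and those of Lrp5 were low throughout. Lrp6 had 790, 260 and 767 counts in dKO, against 660 and 232 in WT. Lrp5 had 37, 2 and 71 counts in dKO, against 7 and 32 in WT. Counts over whole genes cannot show a deleted exon, so the groups below go by their labels. All 8 stem cell markers (among them Procr, Slamf1, Mecom and Hlf) were detected in every library, with a summed level of 1047 to 1175 TPM in dKO and 491 to 896 TPM in WT.

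The genes differed widely in level, which is compared between genes in TPM, the authors' values per transcript length. Meis1, a cofactor that stem cells need for their maintenance, was the most abundant of the 9 at 221 ± 14.3 TPM in dKO (SD, n = 3) and 146 ± 50.9 TPM in WT (SD, n = 2). Hoxa9, the Hox gene most tied to stem cell repopulation, followed at 75.8 ± 26.8 TPM in dKO and 53.4 ± 12.4 TPM in WT. In dKO the next were Hoxa7 at 46.2 ± 18.3 TPM and Mllt3 at 45.7 ± 8.28 TPM, whose libraries overlapped with each other, and then Hoxa10 at 21.7 ± 2.83 TPM. In WT these 3 genes came in the same order, at 20.6 ± 4.09 TPM for Hoxa7, 16.5 ± 2.82 TPM for Mllt3 and 13.9 ± 0.147 TPM for Hoxa10. The range of Hoxa7 also overlapped that of Hoxa9 in dKO, whereas in WT they did not overlap. The other 4 genes stood at 8.54 TPM or lower in every library.

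Hoxa5 averaged 8.03 ± 0.614 TPM in dKO and 1.90 ± 0.747 TPM in WT. Hoxb5, a marker of long-term repopulating stem cells in the mouse, averaged 4.53 ± 2.78 TPM in dKO and 2.71 ± 1.51 TPM in WT. Hoxb4, whose forced expression expands stem cells, averaged 1.06 ± 0.332 TPM in dKO and 1.199 ± 0.573 TPM in WT. Pbx3 was the lowest of the 9 in dKO at 0.139 ± 0.121 TPM and averaged 1.34 ± 0.620 TPM in WT. In WT the libraries of these 4 genes overlapped with at least 1 neighbour in the order, so their order there is not settled.

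No member passed the test across all genes. In edgeR's quasi-likelihood fit (Benjamini-Hochberg adjusted p over 13696 genes), 0 of the 9 members were called higher in dKO (0% of all genes) and 0 lower (0%), the smallest adjusted p of any gene being 0.178. At an unadjusted p under 0.05, 3 of 9 members were higher (Hoxa5, Hoxa7 and Mllt3), against 4.94% of all genes, and 0 were lower, against 5.19%. DESeq2 called 1 of 9 members higher, Mllt3, against 1.15% of 13420 genes, and 0 lower, against 0.678%. On simulated data a far larger share of DESeq2's calls than of edgeR's was false, a limit on every DESeq2 call below. Limma-voom with sample quality weights called 0 members (0% of genes). All 9 members passed the filter on low counts.

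In individual libraries, 4 of 9 members had every dKO value above every WT value in CPM, against 13.7% of all genes, and 1 of 9 had every dKO value below, against 15.6%. The first 4 were Hoxa5, Hoxa7, Hoxa10 and Mllt3 and the other was Pbx3. Pbx3 passed the filter on low counts through the WT libraries alone, so its place below is not independent of that filter. Positive log2 fold changes were found for 7 of 9 members, against 52.2% of all genes. The median log2 fold change of the members was 0.57, or 0.21 without WT replicate 2, and that of all genes tested 0.04.

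**Figure D1:**
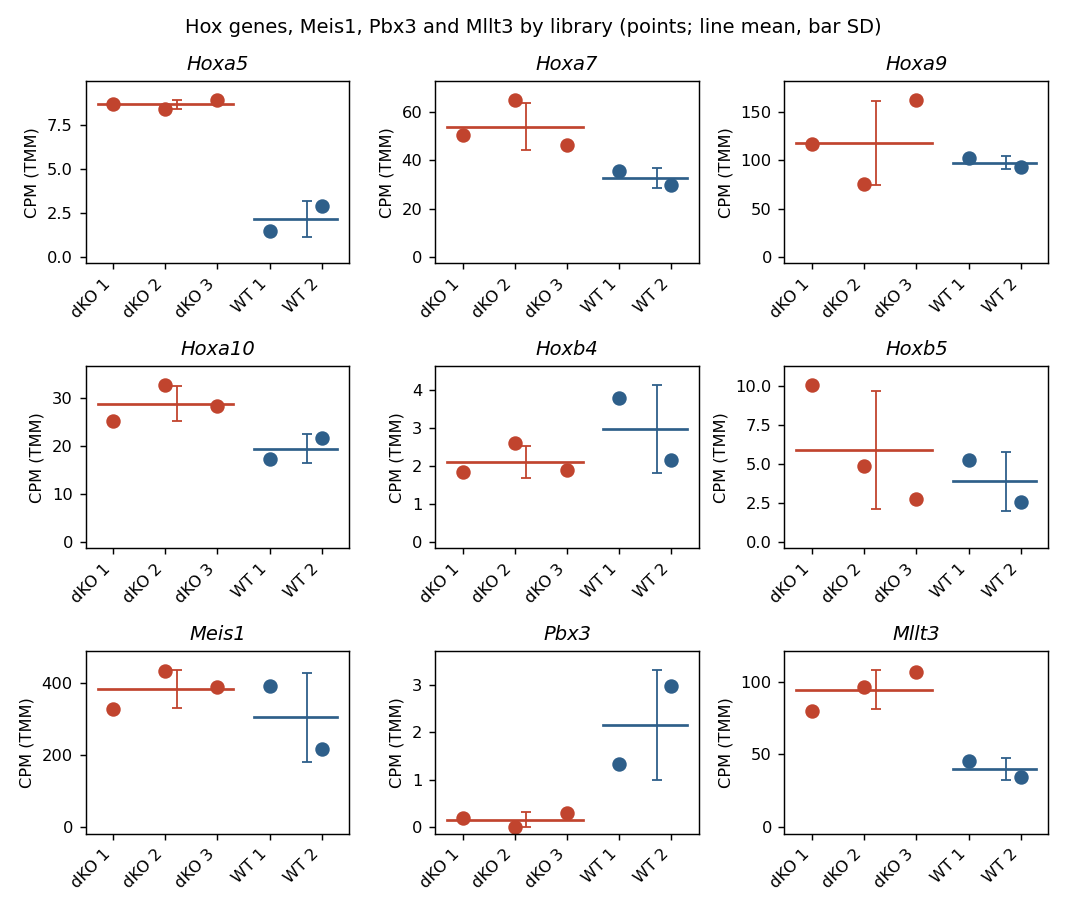
Each panel plots 1 gene in CPM (TMM-scaled, linear axis) for the 3 dKO libraries (red) and the 2 WT libraries (blue), with the group mean as a line and the SD as a bar. The red points lie above both blue points for Hoxa5, Hoxa7, Hoxa10 and Mllt3 and below them for Pbx3, while the groups overlap for Hoxa9, Hoxb4, Hoxb5 and Meis1.

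Mllt3 encodes AF9, a YEATS domain protein that reads acylated histone H3 and recruits elongation factors and the methyltransferase Dot1l, and in human cells it maintains stem cell self-renewal. It had 80.0, 96.3 and 107 CPM in dKO replicates 1 to 3, against 45.2 and 34.5 CPM in WT. The lowest dKO library was thus above the highest WT library, and the deposited TPM showed the same separation with 36.7, 53.0 and 47.4 TPM in dKO, against 18.5 and 14.5 TPM in WT. The log2 fold change was 1.24 ± 0.28 (SE, 95% interval 0.60 to 1.88), with an adjusted p of 0.430 by that edgeR test. DESeq2 gave an adjusted p of 0.00635, and Mllt3 ranked 56th of all genes by edgeR's p. With 1 library left out at a time the log2 fold change lay between 1.06 and 1.44.

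Hoxa5 acts in blood progenitors and in the patterning of the lung and the neck vertebrae. It had 235, 139 and 240 counts in dKO, against 38 and 72 counts in WT, which corresponds to 8.66, 8.40 and 8.89 CPM in dKO, against 1.44 and 2.88 CPM in WT. The 3 dKO values lay close together, with an SD of 0.247 CPM, and above both WT values. The log2 fold change was 1.997 ± 0.84 (SE, 95% interval 0.05 to 3.94), with an adjusted p of 0.491 by the same edgeR test. Leaving out WT replicate 2 gave 2.57, and leaving out WT replicate 1 gave 1.58.

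Hoxa7, activated together with Meis1 in some mouse leukaemias, had 50.7, 65.0 and 46.3 CPM in dKO, against 35.8 and 29.8 CPM in WT. All dKO values were above the WT values, at a log2 fold change of 0.72 ± 0.31 (SE, 95% interval 0.0003 to 1.44) and an adjusted p of 0.493 by edgeR's test. In TPM the dKO libraries had 46.1, 64.6 and 28.04 and the WT libraries 17.7 and 23.4, so the spread within dKO was wider on that scale. The ratio of CPM to TPM, taken relative to each library's median gene, ran from 0.759 to 1.40 between libraries for Hoxa7, a 1.84-fold range, while that of the other members spanned 1.15-fold to 1.41-fold. Hoxa7 thus differed more between the authors' count and TPM tables than any other member, and the assignment of its reads was not tested.

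Hoxa10, a regulator of stem cell and myeloid progenitor proliferation, had 25.4, 32.8 and 28.5 CPM in dKO, against 17.3 and 21.7 CPM in WT. The groups did not overlap. The gap between the lowest dKO and the highest WT library was smaller than the range within either group. The log2 fold change was 0.57 ± 0.37 (SE, 95% interval -0.29 to 1.43), with an adjusted p of 0.665 by edgeR's test.

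Hoxa9 had 117, 74.9 and 162 CPM in dKO, against 102 and 92.5 CPM in WT. The 2 WT values lay inside the dKO range, between the low dKO replicate 2 and the high dKO replicate 3. Its log2 fold change was 0.28 ± 0.33 (SE, 95% interval -0.48 to 1.04; adjusted p = 0.859 by edgeR's test), and it was -0.02 without dKO replicate 3 and 0.53 without dKO replicate 2. The interval spans both directions, so neither the sign of a difference nor its absence is settled by these libraries.

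Meis1 had 329, 432 and 389 CPM in dKO, against 391 and 217 CPM in WT. WT replicate 1 lay among the dKO libraries and WT replicate 2 below them all. In TPM the groups separated, with 204, 228 and 230 in dKO, against 182 and 110 in WT. The log2 fold change from the counts was 0.33 ± 0.27 (SE, 95% interval -0.30 to 0.96; adjusted p = 0.753 by edgeR's test), with -0.04 when WT replicate 2 was left out and 0.81 when WT replicate 1 was.

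WT replicate 2, which set the sign for Meis1, also differed in markers of another cell type. All 5 granulocyte progenitor markers (Mpo, Elane, Prtn3, Ctsg and Ms4a3) were detected in every library, and their summed level was 12328 to 17523 TPM in dKO, against 7458 and 44149 TPM in WT replicates 1 and 2. The 5 megakaryocyte markers, also detected in every library, summed to 132 to 141 TPM in dKO and 60.3 to 67.8 TPM in WT. The summed stem cell markers given above were lowest in WT replicate 2. Such a bulk measurement cannot tell fewer cells of a type from less RNA per cell, and the part of these markers in the values of Meis1, Mllt3 and the HoxA genes was not tested.

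The HoxB members were low and showed no separation between groups. Hoxb5 had 10.1, 4.89 and 2.74 CPM in dKO, against 5.24 and 2.56 CPM in WT. Its dKO replicate 1 was the highest library and the other 2 dKO libraries lay within or near the WT range, so the log2 fold change of 0.60 ± 0.98 (SE, 95% interval -1.67 to 2.86; adjusted p = 0.912 by edgeR's test) was -0.03 without dKO replicate 1. Hoxb4 had 50, 43 and 51 counts in dKO, against 100 and 54 counts in WT, or 2.11 ± 0.423 CPM in dKO and 2.98 ± 1.16 CPM in WT. Its log2 fold change was -0.50 ± 1.19 (SE, 95% interval -3.26 to 2.27; adjusted p = 0.947 by edgeR's test), an interval too wide to exclude a several-fold difference either way, and leaving out WT replicate 1 or WT replicate 2 gave -0.04 or -0.85.

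Pbx3, a partner of Hoxa9 and Meis1 in leukaemia, was near the detection limit in dKO. It had 5, 0 and 8 counts in dKO, against 35 and 74 counts in WT. Every dKO library was below every WT library, and the sums were 13 counts over the 3 dKO libraries and 109 over the 2 WT libraries. With no count, dKO replicate 2 allows up to 0.187 CPM (3 counts of its total, counting error only). The log2 fold change was -3.67 ± 1.93 (SE, 95% interval -8.16 to 0.81), with an adjusted p of 0.569 by edgeR's test, and it lay between -4.39 and -3.00 when 1 library was left out. At this depth and spread the size of the difference is poorly determined, and on the log2(TPM + 1) scale, which shrinks the change of low genes, it was -1.02.

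**Figure D2:**
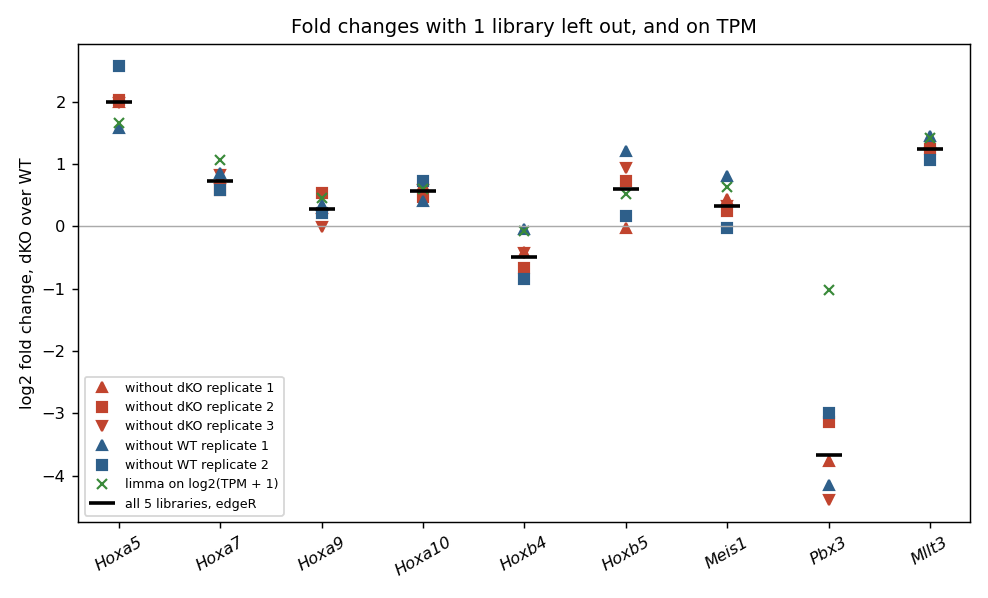
Log2 fold change of dKO over WT for each of the 9 genes with all 5 libraries (black line), with each library left out in turn (red symbols for dKO, blue for WT) and on log2(TPM + 1) (green crosses). All symbols of Hoxa5, Hoxa7, Hoxa10 and Mllt3 lie above 0 and all of Pbx3 and Hoxb4 below it, while Hoxa9, Hoxb5 and Meis1 each reach just below 0 when 1 library is left out.

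Across the 4 clusters, HoxA genes carried most Hox transcripts. Of 39 Hox genes in the files, 17 had a count in at least 1 library: 8 of 11 in HoxA, 6 of 10 in HoxB, 3 of 9 in HoxC and 0 of 9 in HoxD. The summed TPM of all Hox genes was 169, 165 and 172 in dKO, against 110 and 89.3 in WT. Every dKO library was above both WT libraries, and HoxA genes made up 89.2% to 94.6% of that sum in dKO and 87.6% to 95.4% in WT. Hoxa5, Hoxa7, Hoxa9 and Hoxa10 alone gave 87.7% to 93.6% in dKO and 87.0% to 94.5% in WT.

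Within the sum the shares of single genes varied between libraries of a group. Hoxa9 made up 44.2%, 30.1% and 59.9% of Hox TPM in dKO, against 56.8% and 50.1% in WT. Hoxa7 made up 27.3%, 39.2% and 16.3% in dKO, against 16.1% and 26.3% in WT. In dKO replicate 2, the library that stood apart, Hoxa7 exceeded Hoxa9, and in the other 4 libraries it was lower than Hoxa9. The ratio of Meis1 to Hoxa9 in TPM was 2.74, 4.605 and 2.23 in dKO and 2.93 and 2.46 in WT, with overlapping groups.

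**Figure D3:**
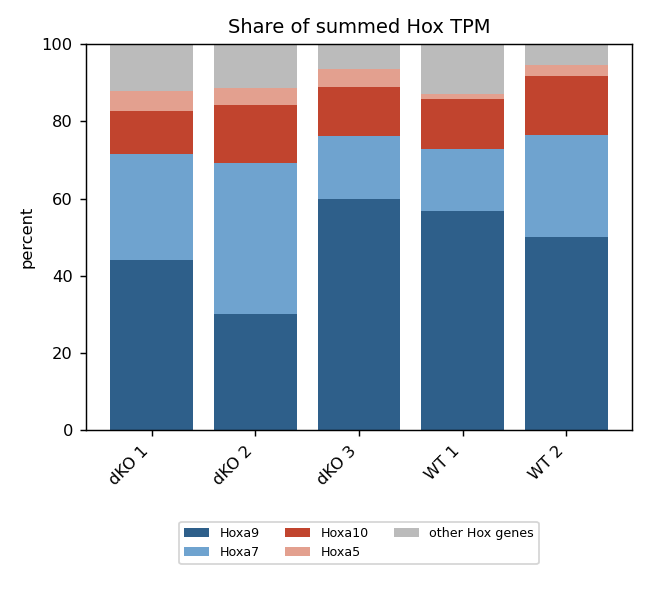
Stacked bars give the share of summed Hox TPM (percent) taken by Hoxa9, Hoxa7, Hoxa10, Hoxa5 and the other Hox genes in each library, dKO libraries at the left and WT libraries at the right. The share of Hoxa9 ranges from 30.1% to 59.9% within dKO and is 56.8% and 50.1% in WT.

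**Figure D4:**
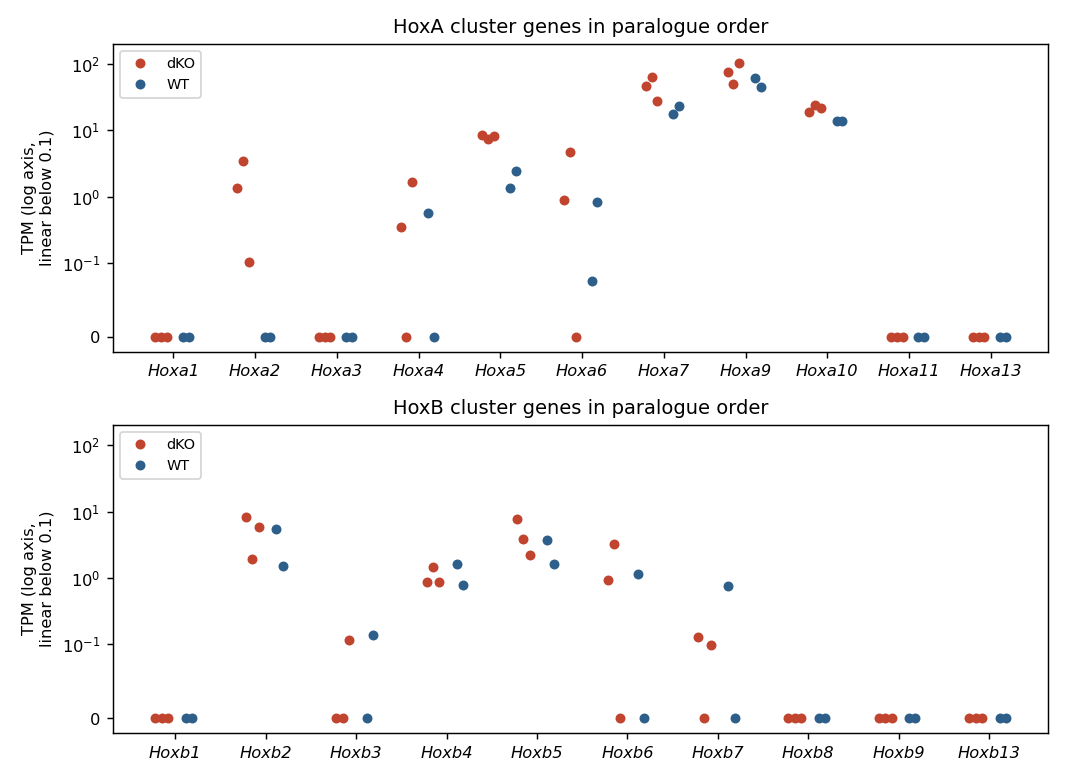
TPM of each HoxA gene (upper panel) and HoxB gene (lower panel) in paralogue order, on a log axis that is linear below 0.1, with dKO libraries in red and WT libraries in blue. The highest levels sit at Hoxa7, Hoxa9 and Hoxa10, the genes beyond them (Hoxa11 and Hoxa13) are at 0 in every library, and Hoxb2, Hoxb4 and Hoxb5 are the HoxB genes with a TPM above 0 in all 5 libraries.

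The Hox genes outside the 9 were low. Of the 39 Hox genes, 12 passed the filter, 6 of them members. Of the 12, 11 had a positive log2 fold change, against 52.2% of all genes, and the median was 1.23, against 0.04 over all genes. By edgeR's adjusted test 0 passed, and DESeq2 called 0. At an unadjusted p under 0.05, 3 were higher (Hoxa2, Hoxa5 and Hoxa7) and 0 lower, against 4.94% and 5.19% of all genes. Hoxa2, a hindbrain patterning gene, had 26, 62 and 4 counts in dKO, against 0 and 0 counts in WT, a mean CPM at least 13.8-fold higher in dKO when WT is set to a floor of 3 counts per library, and at least 4.73-fold higher without dKO replicate 2. It passed the filter through the dKO libraries alone, as Hoxa3 did. Hoxa2 was the largest value of the list with or without this bound, so the bound could not move the median of 1.23. Hoxa6 had 19, 83 and 0 counts in dKO, against 1 and 22 in WT, and Hoxa4 had 8, 0 and 43 counts in dKO, against 13 and 0 in WT. Hoxa2 was thus counted in every dKO library and in no WT library, whereas Hoxa4 and Hoxa6 were absent from 1 library of dKO and, for Hoxa4, from 1 of WT. The median of the list was 0.51 without WT replicate 2 and 0.57 without dKO replicate 2.

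Hoxb6 had 18, 48 and 0 counts in dKO, against 23 and 0 in WT, and Hoxb2 had 26, 13 and 24 counts in dKO, against 21 and 0 in WT. WT replicate 2 is given 1.51 TPM for Hoxb2 in the deposited table despite its 0 counts. For Hoxa3 the opposite held, with TPM listed as 0 in every library and 35, 0 and 37 counts in dKO, against 2 and 9 in WT, so the count and TPM tables did not rest on the same assignment of reads. Hoxb3, Hoxb7, Hoxc6, Hoxc8 and Hoxc9 did not pass the filter, with 29, 27, 11, 1 and 5 counts in all. The noncoding Hoxb3os had 100, 94 and 41 counts in dKO and 56 and 33 in WT, and Cdx1, Cdx2 and Cdx4, the caudal factors that act upstream of Hox genes in the embryo, had 0 counts in every library, below the limit of 0.107 to 0.187 CPM that 3 counts allow.

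The gene of miR-196b lies in the HoxA cluster between Hoxa9 and Hoxa10 and is shown because 85 of its bases fall in exons of Hoxa9 on the same strand in GENCODE M21. It had 0 counts in every library but was listed at 4.62, 0.545 and 0.316 TPM in dKO, against 11.1 and 1.49 TPM in WT, values that do not measure the mature miRNA. The mature sequence is from RefSeq (GRCm38.p6, chr6:52230129-52230150, minus strand), with the seed, bases 2 to 8, in capitals.
mmu-miR-196b-5p: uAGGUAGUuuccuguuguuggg

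Overlapping annotation touched 4 members. Standard Smart-seq2 does not mark strand, so reads from a gene and its antisense partner cannot be told apart. In GENCODE M21, 20.4% of the exon bases of Hoxa7 are shared with the antisense gene Hoxaas3, which is not used here, and 100 exon bases of Hoxb5 with Hoxb5os. Meis1 shares 8.51% of its exon bases with the antisense gene Gm16140, which had 72, 1 and 27 counts in dKO and 31 and 17 in WT. In the deposited TPM, Gm16140 stood at 84.9, 61.6 and 56.8 in dKO, against 42.2 and 23.4 in WT, so the groups separated there as those of Meis1 did. Another 9.77% of Meis1 exon bases are shared with Gm37818 on the same strand, a gene not used here. Hoxa5, Hoxa10, Hoxb4, Pbx3 and Mllt3 shared no exon base with another gene there.

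Among the other TALE genes, Pbx4 stood above both WT libraries in every dKO library, the opposite of Pbx3. Of 12 TALE genes and Pbx partners in the list, 10 passed the filter, 8 with a positive log2 fold change, against 52.2% of all genes. The median of the 10 was 0.61 (0.32 without dKO replicate 2, 0.93 without WT replicate 1). By edgeR's adjusted test 0 passed, and DESeq2 and limma-voom called 0. At an unadjusted p under 0.05, 1 was higher (Pbxip1) and 0 lower, against 4.94% and 5.19% of all genes. In 4 of 10 every dKO library was above every WT library in CPM and in 1 of 10, Pbx3, below, against 13.7% and 15.6% of all genes. As said above, Pbx3 passed the filter through the WT libraries alone.

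Pbx4 itself had 7.52, 16.4 and 14.3 CPM in dKO, against 2.77 and 5.73 CPM in WT, with a log2 fold change of 1.58 (adjusted p = 0.519 by edgeR's test). Pbx2 had a log2 fold change of -0.03 and the Meis-related Pknox1 of 0.47, which was 0.10 when WT replicate 2 was left out and 0.95 when WT replicate 1 was. Pbxip1, a protein that binds Pbx and hinders its DNA binding, averaged 69.7 ± 16.8 CPM in dKO and 41.3 ± 6.01 CPM in WT (0.75; adjusted p = 0.491 by edgeR's test). The TGIF repressors Tgif1 and Tgif2 had log2 fold changes of 0.16 and 1.31, and Tgif2 was at 0.80 without dKO replicate 2. Meis3, at 1.76, rested on dKO replicate 2 with 237 counts, against 36 and 0 counts in the other dKO libraries and 51 and 28 in WT, and was -1.18 without that library. Meis2 and Pknox2 had 0 counts in every library.

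Among the genes of the MLL and elongation complexes, 20 of 20 passed the filter, 13 with a positive log2 fold change, against 52.2% of all genes. The median of the 20 was 0.41 (0.14 without dKO replicate 3). None passed edgeR's adjusted test, limma-voom called 0, and DESeq2 called Mllt3 and Aff4 higher, against 1.15% of genes. At an unadjusted p under 0.05, 4 were higher and 1 lower, against 4.94% and 5.19% of all genes. In 9 of 20 every dKO library was above every WT library in CPM and in 3 of 20 below, against 13.7% and 15.6% of all genes. Aff4, the scaffold of the super elongation complex, averaged 54.2 ± 1.63 CPM in dKO and 24.5 ± 2.92 CPM in WT (log2 fold change 1.14; adjusted p = 0.430 by edgeR's test and 0.0207 by DESeq2). Ccnt1, the cyclin T1 subunit of the elongation factor P-TEFb, averaged 94.2 ± 27.2 CPM in dKO and 42.1 ± 9.87 CPM in WT (1.16), and Dot1l, which methylates histone H3 within genes, 33.4 ± 19.2 CPM in dKO and 14.9 ± 1.36 CPM in WT (1.16). Without dKO replicate 2 the value of Dot1l was 0.62.

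The methyltransferase gene Mll1 averaged 80.3 ± 6.03 CPM in dKO and 47.5 ± 2.03 CPM in WT, a log2 fold change of 0.76 (adjusted p = 0.436 by edgeR's test), although its TPM overlapped between groups. Dpy30, a core subunit shared by the MLL-type methyltransferases, lay below WT in every dKO library, at 98.5 ± 13.1 CPM in dKO and 152 ± 26.3 CPM in WT (-0.63; adjusted p = 0.446 by edgeR's test). The ratio of Mllt3 to Mll1 in TPM was 9.44, 5.53 and 6.03 in dKO, against 3.44 and 3.06 in WT, and that of Mllt3 to Meis1 was 0.180, 0.232 and 0.206 in dKO, against 0.102 and 0.132 in WT. Both ratios in TPM were higher in every dKO library than in every WT library, a difference that was described and not tested. In dKO replicate 1 Mll1 had the lowest TPM of all libraries, 3.89, but the highest CPM, 85.8. The ratio of 9.44 in that library thus depends on the use of TPM.

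**Figure D5:**
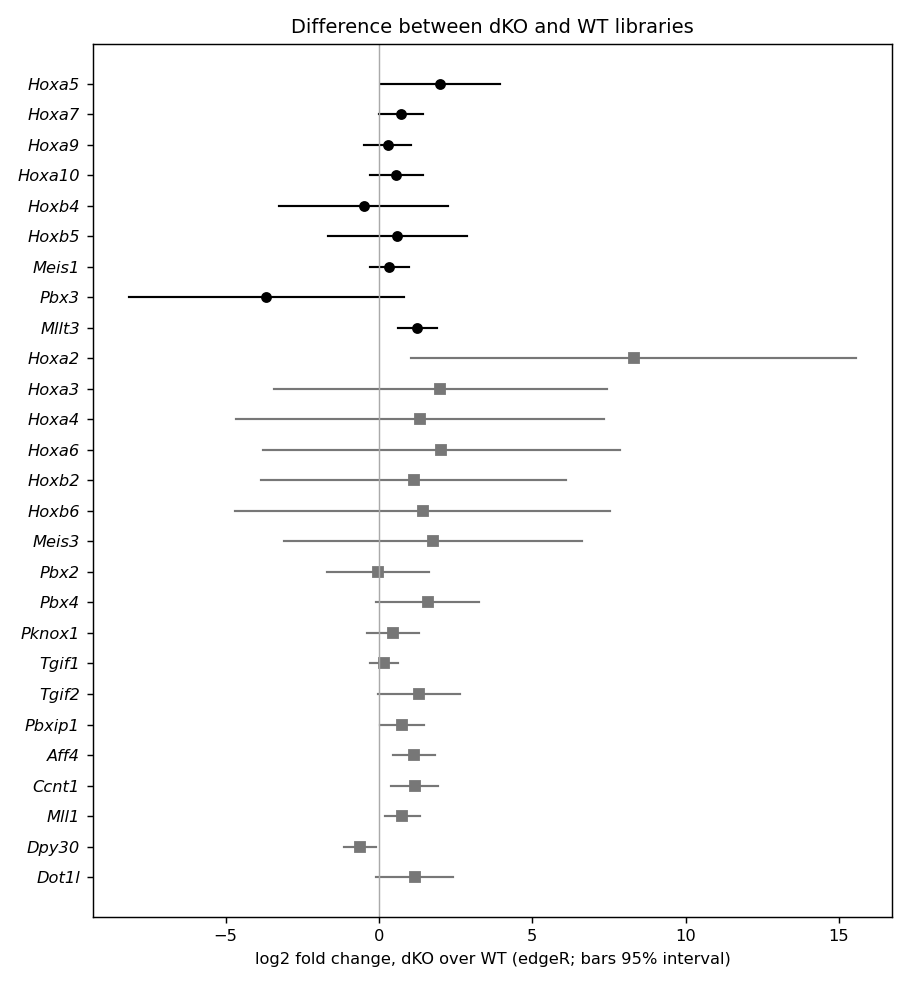
Log2 fold change of dKO over WT with its 95% interval from edgeR for the 9 genes (black circles) and for the other Hox, TALE and MLL complex genes named in the text (grey squares). The narrow intervals of Mllt3, Aff4, Ccnt1 and Mll1 lie above 0 and that of Dpy30 below 0, while the low Hox genes have intervals that span several log2 units. The intervals are not adjusted for the number of genes, and no gene shown passed edgeR's adjusted test. The MLL complex genes shown are those with the smallest p of their list, so intervals that miss 0 follow from that choice.

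Genes known as targets of Hox and Meis1 proteins gave a mixed picture, in a list chosen with earlier results of these data known. The tested targets named below are the 6 with the smallest p. The other tested targets had log2 fold changes between -0.004 and 0.28. Of 13 in the list, 12 passed the filter, 10 with a positive log2 fold change, against 52.2% of all genes. The median of the 12 was 0.25. Leaving out 1 library moved that median to 1.05 (WT replicate 1), 0.0004 (WT replicate 2) or 0.57 (dKO replicate 2). By edgeR's adjusted test 0 were called. At an unadjusted p under 0.05, 5 were higher and 0 lower, against 4.94% and 5.19% of all genes. Limma-voom called 0, and DESeq2 called Trib2 and Msi2 higher, against 1.15% of genes. In 5 of 12 every dKO library was above every WT library and in 1 of 12 below, against 13.7% and 15.6% of all genes. Trib2, a pseudokinase gene that Meis1 activates in leukaemia models, had 266, 169 and 99 counts in dKO, against 17 and 15 counts in WT (log2 fold change 3.65; adjusted p = 0.434 by edgeR's test and 0.0107 by DESeq2). The RNA-binding self-renewal factor Msi2 averaged 113 ± 25.5 CPM in dKO and 43.6 ± 6.51 CPM in WT (1.37; adjusted p = 0.430 by edgeR's test and 0.00328 by DESeq2).

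The cytokine receptor gene Flt3, which Hoxa9 and Meis1 can activate and whose protein the sort excluded from the surface, averaged 333 ± 30.2 CPM in dKO and 177 ± 85.9 CPM in WT (0.91; adjusted p = 0.441 by edgeR's test). Its log2 fold change was 0.48 when WT replicate 2 was left out and 1.51 when WT replicate 1 was. Igf1, a growth factor regulated by Hoxa9, averaged 9.57 ± 6.74 CPM in dKO and 1.05 ± 1.09 CPM in WT (3.18), and the survival gene Bcl2 33.6 ± 19.9 CPM in dKO and 14.04 ± 1.27 CPM in WT (1.26). Igf1 stood at 5.05 without WT replicate 1 and Bcl2 at 0.67 without dKO replicate 2. Hif1a, a hypoxia factor that Meis1 activates in stem cells, lay below WT in every dKO library at 53.1 ± 18.8 CPM in dKO and 83.8 ± 10.4 CPM in WT (-0.66). In TPM its groups overlapped, and its log2 fold change was -0.39 without dKO replicate 2 and -0.34 on log2(TPM + 1). Epas1, which encodes a related hypoxia factor, was counted in dKO replicate 3 alone, with 46 counts.

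Likeness of pattern over the 5 libraries was measured gene by gene. For each member the gene with the most similar profile was found among 13695 other tested genes by the Euclidean distance between centred log2 CPM values. The nearest other member ranked 238th for Hoxa5, 435th for Hoxa7, 441st for Mllt3, 473rd for Hoxa10 and 735th for Meis1, and between 1427th and 5240th for the other 4. The nearest genes were Ms4a2 for Hoxa5 (distance 0.34), Zfp740 for Hoxa7 (0.07), Dhx40 for Hoxa9 (0.07), Pqlc3 for Hoxa10 (0.07), Rab3il1 for Hoxb4 (0.14), Lzts2 for Hoxb5 (0.35), Lin52 for Meis1 (0.11), A430078I02Rik for Pbx3 (1.09) and Gm16141 for Mllt3 (0.13). With 5 libraries and so many genes, close profiles are common. A nearest gene was chosen by its profile, so a separation of its groups like that of the member follows from that choice.

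Values are given here for the neighbours of Hoxa5 and Mllt3. Ms4a2, a subunit of the IgE receptor of mast cells and basophils, had 14.2, 11.5 and 13.3 CPM in dKO, against 1.82 and 3.57 CPM in WT, a separation like that of Hoxa5 at a log2 fold change of 2.27 (adjusted p = 0.436 by edgeR's test). Gm16141, an antisense gene that lies within the Meis1 gene in GENCODE M21, had 28.6, 32.9 and 34.9 CPM in dKO, against 15.997 and 12.7 CPM in WT (1.17; adjusted p = 0.436 by edgeR's test). Its groups separated in CPM where those of Meis1 overlapped, and without strand its reads cannot be told apart from Meis1 intron reads.

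Promoter sequences are shown for Mllt3, Hoxa5, Hoxa7 and Hoxa10, the members whose dKO libraries all lay above WT, with Meis1 beside them as the most abundant member. RefSeq gives promoters for 7 of the 9 members, with 9 start sites in all, and each was searched over the 250 bases before the start on both strands. The Hox-Pbx site TGATNNAT was in 0 of the 9 windows, against 7.68% of 32851 promoter windows of the same length, and the TCF-LEF site CTTTGAT, which Wnt signalling uses, was in 0 of 9, against 3.21%. The Meis site TGACAG was in 1 of 9, the inner start of Mllt3, against 15.9%, and the NF-Y box CCAAT was in 5 of 9, against 33.8%. A match is a run of letters and not a binding site, and its absence holds only for this window. Of the windows printed, 4 hold a CCAAT box, in capitals as CCAAT or its complement ATTGG, which begins 67 bases before the start for Mllt3, 204 for Hoxa5, 64 for the inner start of Hoxa10 and 54 for Meis1. The window of Hoxa7, which separated the groups as the others did, holds none of the 4 motifs and is all in lower case. The outer start of Hoxa10, Hoxa9 and Hoxb4 also held none, and the inner start of Mllt3, not printed, holds the CCAAT box too. The printed windows run 5′ to 3′ on the gene's strand from RefSeq on GRCm38.p6, at chr4:88033408-88033657 (Mllt3), chr6:52204588-52204837 (Hoxa5), chr6:52218574-52218823 (Hoxa7), chr6:52234940-52235189 (Hoxa10) and chr11:19018970-19019219 (Meis1), all on the minus strand.
Mllt3: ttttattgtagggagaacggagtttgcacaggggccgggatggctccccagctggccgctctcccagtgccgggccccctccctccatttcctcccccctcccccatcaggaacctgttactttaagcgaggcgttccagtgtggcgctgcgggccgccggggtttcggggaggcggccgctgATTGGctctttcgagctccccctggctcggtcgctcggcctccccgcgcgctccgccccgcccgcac
Hoxa5: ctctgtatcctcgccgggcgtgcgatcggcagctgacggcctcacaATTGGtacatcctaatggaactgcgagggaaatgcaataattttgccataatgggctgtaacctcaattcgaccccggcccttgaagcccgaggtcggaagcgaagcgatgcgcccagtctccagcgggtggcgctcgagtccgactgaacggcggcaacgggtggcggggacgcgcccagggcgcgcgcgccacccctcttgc
Hoxa7: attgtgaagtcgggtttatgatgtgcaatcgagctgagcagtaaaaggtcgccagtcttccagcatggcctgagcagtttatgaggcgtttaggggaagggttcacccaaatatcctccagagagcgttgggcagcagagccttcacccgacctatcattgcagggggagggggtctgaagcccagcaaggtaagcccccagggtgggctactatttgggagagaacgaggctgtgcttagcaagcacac
Hoxa10: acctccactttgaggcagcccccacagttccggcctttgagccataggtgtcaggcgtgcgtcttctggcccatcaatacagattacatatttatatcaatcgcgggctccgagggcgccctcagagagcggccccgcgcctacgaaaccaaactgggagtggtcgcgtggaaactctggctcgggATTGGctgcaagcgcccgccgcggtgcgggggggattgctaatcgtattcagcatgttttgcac
Meis1: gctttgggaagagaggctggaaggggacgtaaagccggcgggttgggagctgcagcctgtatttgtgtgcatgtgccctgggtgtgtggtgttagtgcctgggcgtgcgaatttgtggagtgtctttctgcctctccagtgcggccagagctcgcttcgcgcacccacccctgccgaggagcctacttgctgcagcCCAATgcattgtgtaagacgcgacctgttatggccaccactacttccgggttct
GC content of the 9 windows ran from 45.2% to 69.2%, highest in the Mllt3 window shown, against a median of 52.4% over all promoter windows.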

How the data were processed

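Bulk RNA-seq of 5 libraries, 3 dKO and 2 WT, was grouped by the labels. For each library the authors deposited raw counts per gene, whole numbers without normalization, and TPM, levels scaled by the authors to transcript length and library. Per the submitters' processing notes the tools included TopHat2 2.1.1, HTSeq, RSEM 1.2.31, DESeq2, Trimmomatic and FastQC 0.11.5, and the build was mm9, but their roles and settings are not given in the sources used here. Files hold 33924 entries, of which 30 without a gene name (0.216% to 0.269% of counts) were dropped.

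Counts were tested with edgeR 4.0.16 (R 4.3.3; TMM, filterByExpr, robust quasi-likelihood fit, no covariate), with Benjamini-Hochberg adjustment over 13696 genes and a threshold of 0.05. The biological coefficient of variation was 67.9%. No library was a copy of another (chi-square per degree of freedom 105 to 170 within groups), which separately amplified libraries of 1 pool could also show. CPM values are TMM-scaled, and floors use 3 counts of the unscaled total. Intervals are 95%. Alternatives were DESeq2 1.42.0, limma 3.58.1 (voom with quality weights, or log2 TPM with a pseudocount of 1 or 0.1), RLE and upper quartile scaling, no filter, a filter of 5 CPM in 2 libraries, a block on replicate number, and leaving out each library in turn. The tests were checked on simulated data. There edgeR missed most of the changes put in, and a far larger share of DESeq2's calls than of edgeR's was false.

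Members and lists were chosen with earlier results of these data known. Named are all members, tested Hox and TALE genes, the 6 genes with the smallest p of the MLL complex and target lists, and each member's nearest profile. A gene that this rule would name, and a marker gene, are not reported here. In the MLL list 2 genes were matched by identifier. No mm9 coordinates are given. Promoters, miRNA and overlaps come from RefSeq and GENCODE M21 on GRCm38, which served for sequence and annotation only.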

Additional observations from a re-analysis of the deposited data

How the results depend on the processing

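Under the 14 alternatives run, Hoxa5 (log2 fold change 1.58 to 2.57), Hoxa7 (0.57 to 1.099), Hoxa10 (0.41 to 0.73), Mllt3 (1.06 to 1.46), Hoxb4 (-0.85 to -0.04) and Pbx3 (-4.84 to -1.02) kept their sign, Hoxb4 and Pbx3 in 13, since the filter of 5 CPM removes them. Adjusted p ran from 0.00635 for Mllt3 and 0.155 for Hoxa5, both by DESeq2, up to 0.99955. DESeq2 called 154 genes higher and 91 lower, of which 1 was a member (Mllt3), edgeR with no filter called 5 and 3, limma on log2(TPM + 1) 3 and 2, and limma on log2(TPM + 0.1) called 2 higher. With 1 library left out edgeR called 0 to 2 genes higher and 0 to 3 lower. Where WT kept 1 library, that library is assumed to vary like the others. The labels do not say whether replicate numbers pair the libraries. Deviations of same-numbered libraries correlated at 0.03 and 0.05, and those of dKO replicate 3 and WT replicate 1 at 0.03. With 2 WT libraries, whose deviations mirror each other, this cannot settle whether they pair. The replicate block called 1 gene higher and gave -0.055 for Hoxa9 and -0.64 for Hoxa4. With 1 library left out, values ran from -0.019 (no dKO replicate 3) to 0.53 for Hoxa9, from -0.027 (no dKO replicate 1) to 1.20137 for Hoxb5 and from -0.035 (no WT replicate 2) to 0.81 for Meis1. They ran from -0.37 to 5.46 for Hoxa6, from -0.37 to 7.83 for Hoxb6 and from -1.18 to 2.35 for Meis3, each lowest without dKO replicate 2. Pbx2 ran from -0.36 to 0.37 and was above 0 without dKO replicate 1 (0.05), dKO replicate 2 (0.05) or WT replicate 2 (0.37). Limma-voom turned Meis3 (-1.83) and Pbx2 (0.0083), log2(TPM + 1) Pbx2 (0.65), and log2(TPM + 0.1) Meis3 (-0.19) and Pbx2 (0.77); the cause was not tested. The median log2 fold change of the members was 0.21 when WT replicate 2 was left out and 0.81 when WT replicate 1 was. Over the alternatives the list medians ran from 0.51 to 1.26 (Hox genes), 0.32 to 0.93 (TALE), 0.14 to 0.44 (MLL complexes) and 0.00 to 1.05 (targets). Depth and spread limit low genes most: Pbx3, Hoxb4 and the Hox genes outside the 9 have intervals of several log2 units.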

Other observations

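Markers of other lineages were also measured beside the Hox genes. The 5 erythroid markers Car1, Klf1, Hba-a1, Epor and Rhag summed to 282, 267 and 283 TPM in dKO, against 250.3 and 201 TPM in WT. DESeq2 called Car1 and Rhag higher, against 1.15% of genes. Car1 had 108, 89.1 and 86.0 TPM in dKO and 9.44 and 7.77 TPM in WT (adjusted p = 2.93e-20 by DESeq2 and 0.178 by edgeR's test). Rhag had 204, 184 and 103 counts in dKO and 9 and 2 in WT (adjusted p = 0.000848 by DESeq2 and 0.430 by edgeR's test). Rhag passed the filter on low counts through the dKO libraries alone, so its call is not independent of that filter. Hba-a1 and Epor had log2 fold changes of -0.21 and -0.03. The part of these cells in the Hox values was not tested. The 7 B cell markers summed to 211 to 480 TPM in dKO and 146 to 251 TPM in WT. Of the 6 that were tested, 5 had a positive log2 fold change, against 52.2% of all genes, and the median of the 6 was 1.65. In 3 of the 6 every dKO library was above every WT library in CPM, against 13.7% of all genes. Ebf1, a B lineage transcription factor, had 95, 204 and 771 counts in dKO, against 36 and 12 in WT (log2 fold change 3.99; adjusted p = 0.434 by edgeR's test and 0.00941 by DESeq2). Pax5 had 0 counts in dKO replicate 2 and both WT libraries. Markers of stroma and endothelium summed to 8.30 to 12.9 TPM in dKO and 3.85 to 3.97 TPM in WT. Of the 4 tested, 3 had a positive log2 fold change, against 52.2% of all genes. Cxcl12 had 248, 246 and 38 counts in dKO, against 3 and 25 in WT (3.91; adjusted p = 0.466 by edgeR's test). It passed the filter on low counts through the dKO libraries. Pdgfrb had 402, 73 and 620 counts in dKO, against 284 and 258 in WT, with overlapping groups. Lepr had 0 counts in every library, and Cdh5 had 3 counts in dKO replicate 3 and 0 elsewhere.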
